A study of Homo sapiens with 24 samples.

Results

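Polycomb repressive complex 2 (PRC2), one subunit of PRC1 and the paired histone acetyltransferases CREBBP and EP300 were followed through FOXP1 silencing in 4 diffuse large B-cell lymphoma (DLBCL) lines. The members were chosen by name and numbered 10 genes of the 30142 on the array: EZH2, EZH1, EED, SUZ12, RBBP4, RBBP7, JARID2, BMI1, CREBBP and EP300. Together they had 20 of the 41000 probes, since SUZ12, BMI1 and CREBBP had 3 probes each, RBBP4 had 4 and EP300 had 2. DB and K422 are lines of the germinal centre B-cell (GCB) subtype, and HBL-1 and OCI-Ly3 are lines of the activated B-cell (ABC) subtype. Cells were nucleofected with 1 µM of siFOXP1 #1, siFOXP1 #2 or the non-targeting siCtrl, and RNA was taken after 48 h. Each of 24 arrays set siFOXP1 RNA in Cy3 against siCtrl RNA of the same line in Cy5, with 3 replicates for each line and siRNA. All are established lines, silencing was transient, and every value is an average over a whole culture, so fewer transcripts per cell and a changed mix of cells cannot be told apart.

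PRC2 methylates histone H3 at the lysine known as H3K27 and so keeps genes silent. EZH2 and EZH1 are its alternative catalytic subunits, EED binds the finished mark, SUZ12 holds the core together, and RBBP4 and RBBP7 bind histones. JARID2 is an accessory subunit that helps to bring the complex to chromatin, and BMI1 belongs to PRC1, which ubiquitinates histone H2A. CREBBP and EP300 acetylate histones, H3K27 among their targets, and so act on the same residue in the opposite sense. EZH2 is abundant in germinal centre B cells, and both EZH2 and CREBBP are recurrently mutated in GCB-DLBCL.

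The values below are the log2 ratio of siFOXP1 over siCtrl for each array, positive where a transcript was higher on silencing, and the siCtrl level, the log2 Cy5 signal against the 75th percentile of its array. A gene was represented by its brightest probe, called probe 1, and passed as called where the p from 1 limma fit, adjusted by Benjamini-Hochberg over all genes, was under 0.05. The fit pooled the spread of a gene over all lines, so its p in 1 line does not measure the SD printed beside it. With each line fitted alone, all genes called numbered 390 in DB in place of 3655, and 4736 in K422 in place of 5846. In HBL-1 they numbered 9576 in place of 9387, and in OCI-Ly3 5780 in place of 5657. Dyes were not swapped, so the change of a probe within one line cannot be told apart from its dye bias, whereas the bias cancels in differences between lines. Scan session 1 held DB with OCI-Ly3 and scan session 2 held HBL-1 with K422, so levels were compared first within a session. All 20 probes were well above background on all 24 arrays in both channels, except that CREBBP probe 3 was so in the siCtrl channel of 23. FOXP1 itself lay below 0 on 6 of 6 arrays of each line, with a mean of -2.00 ± 0.79 (SD, n = 6) for DB and -1.34 ± 0.47 for K422, and of -1.74 ± 0.55 for HBL-1 and -1.96 ± 0.54 for OCI-Ly3. The array of siFOXP1 #1 in DB replicate 3 had the widest spread of log2 ratios over all probes, and several members stood apart on it. In siCtrl cells all 6 B cell markers were well above background on all 6 arrays of every line. Of the 5 GCB markers, 5 were so in either GCB line and 2 in either ABC line. Of the 5 ABC markers, 2 were so in DB, 1 in K422 and 5 in each ABC line. Of 6 markers of other blood cells, between 1 and 4 were so, depending on the line.

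Where a gene had several probes, the probes read different parts of its transcript, and their values differed as described further on. Probes from 5 of these genes are shown here with their hg18 positions, in lower case throughout, as the deposited files give them. Each is 60 bases long, and for all but the EP300 probe the genomic interval is longer than the probe, as for a probe that aligns across an intron.
SUZ12 probe 2, chr17:27288629-27291453, plus strand: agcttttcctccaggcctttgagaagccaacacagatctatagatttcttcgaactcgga
SUZ12 probe 3, chr17:27326807-27327674, plus strand: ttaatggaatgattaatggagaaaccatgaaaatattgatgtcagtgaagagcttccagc
RBBP4 probe 3, chr1:32910684-32910857, plus strand: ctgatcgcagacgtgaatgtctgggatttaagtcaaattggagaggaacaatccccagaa
BMI1 probe 3, chr10:22657593-22658001, plus strand: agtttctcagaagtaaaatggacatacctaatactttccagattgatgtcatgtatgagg
CREBBP probe 3, chr16:3783589-3800624, minus strand: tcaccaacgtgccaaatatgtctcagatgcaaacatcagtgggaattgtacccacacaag
EP300 probe 1, chr22:39883200-39883259, plus strand: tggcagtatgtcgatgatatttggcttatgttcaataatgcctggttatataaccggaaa

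EZH2, SUZ12 and RBBP7 had log2 ratios that ran together over the arrays, so the 250 bases before their start sites were read from RefSeq promoters of GRCh38.p14, with the first listed start site used where a gene had 2. Capitals mark CCAAT, the sequence of the CCAAT box, or TTTCCCGC, one of 4 spellings searched for an E2F type site (the others were TTTCGCGC, TTTGGCGC and TTTGCCGC), on either strand.
EZH2, chr7:148884292-148884541, minus strand: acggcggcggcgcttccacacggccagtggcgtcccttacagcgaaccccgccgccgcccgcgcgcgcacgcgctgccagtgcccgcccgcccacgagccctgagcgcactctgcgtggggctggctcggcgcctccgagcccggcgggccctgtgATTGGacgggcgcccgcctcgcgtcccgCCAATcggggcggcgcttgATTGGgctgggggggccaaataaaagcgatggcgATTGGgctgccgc
SUZ12, chr17:31936757-31937006, plus strand: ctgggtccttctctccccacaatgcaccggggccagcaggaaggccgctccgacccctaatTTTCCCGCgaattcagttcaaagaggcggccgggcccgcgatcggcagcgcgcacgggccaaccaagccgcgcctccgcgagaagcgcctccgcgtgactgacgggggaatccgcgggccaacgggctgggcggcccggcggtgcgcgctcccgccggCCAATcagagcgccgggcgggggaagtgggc
RBBP7, chrX:16870363-16870612, minus strand: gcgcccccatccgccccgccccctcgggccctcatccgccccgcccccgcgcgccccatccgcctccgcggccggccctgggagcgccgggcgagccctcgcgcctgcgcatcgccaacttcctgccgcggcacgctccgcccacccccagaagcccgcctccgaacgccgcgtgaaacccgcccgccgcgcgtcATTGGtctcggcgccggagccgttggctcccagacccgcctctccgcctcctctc

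The EZH2 window held 4 CCAAT matches, at 94, 66, 47 and 13 bases before the start site, with 0 in the window of its second listed start site, against 1 each in the SUZ12 window (31 bases before) and the RBBP7 window (55 bases before). Of all 35116 promoter windows of the same length, 32.0% held at least 1 CCAAT and 0.874% held 4 or more. The E2F type match of SUZ12 lay 189 bases before its start site, and 2.79% of all windows held such a match. Neither motif was particular to these 3 members. EZH1, whose log2 ratio ran against that of EZH2, held an E2F type match (TTTGCCGC) 115 bases before its start site. The first listed windows of EED, RBBP4 and JARID2 held CCAAT, and those of BMI1, CREBBP and EP300 held neither motif. TGTTTAC, a forkhead type sequence, was in 2.98% of all windows and in none of the 16 windows of the 10 members. The matches describe these letters in these windows and no more.

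In siCtrl cells, EZH2 was lowest in HBL-1 and highest in OCI-Ly3. Its level in the 3 replicates was 4.80, 5.08 and 4.91 in DB, 5.29, 5.27 and 5.39 in OCI-Ly3, 4.55, 4.57 and 4.79 in K422 and 4.33, 4.12 and 4.26 in HBL-1. The ABC line was thus above its GCB neighbour in session 1 and below it in session 2, with no overlap of replicates in either. OCI-Ly3 exceeded DB by 0.39 ± 0.12 (SE; limma adjusted p = 0.0248) and HBL-1 lay below K422 by a difference of -0.40 ± 0.12 (adjusted p = 0.0210). Quantile normalization between arrays brought the first difference to 0.07 (adjusted p = 0.711). Without DB replicate 1, DB replicate 3 or OCI-Ly3 replicate 3 the first had adjusted p of 0.0658, 0.0671 and 0.0742, and without K422 replicate 3, HBL-1 replicate 2 or HBL-1 replicate 3 the second had 0.0854, 0.0866 and 0.0512. The order over all lines was OCI-Ly3, DB, K422 and HBL-1, and only its neighbours DB and K422 did not differ past the threshold, with a difference of -0.29 that crosses sessions.

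The other catalytic subunit, EZH1, which is typical of resting cells, was highest in DB at 0.94, 0.49 and 0.74, followed by OCI-Ly3 at 0.41, 0.28 and 0.18. K422 had 0.00, -0.15 and -0.10 and HBL-1 had -0.02, -0.11 and -0.16, and these last lines overlapped. EZH1 was lower in OCI-Ly3 than in DB by a difference of -0.43 ± 0.13 (adjusted p = 0.0212, and between 0.0578 and 0.0715 without DB replicate 1 or 3 or OCI-Ly3 replicate 2 or 3), while HBL-1 and K422 differed by -0.01, with a 95% interval of -0.30 to 0.28. EED, the reader of the mark, stood at 5.22, 5.40 and 5.48 in K422 against 4.13, 4.04 and 4.03 in HBL-1. That is 2.46-fold lower in HBL-1 (log2 difference -1.30 ± 0.15, adjusted p = 3.89e-05). DB had 4.62, 5.22 and 5.12 and OCI-Ly3 4.74, 4.76 and 4.80, which overlap and differed by -0.22 (interval -0.56 to 0.12). Without DB replicate 1 that difference was -0.40 (adjusted p = 0.0147), and with quantile normalization -0.49 (adjusted p = 0.0161).

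SUZ12 and RBBP4 are both core subunits, and their levels depended on the probe. By probe 1, SUZ12 ran from 3.71 to 4.34 over all 12 siCtrl replicates, and neither within-session difference passed the test (0.22 for OCI-Ly3 minus DB, interval -0.01 to 0.44, and -0.13 for HBL-1 minus K422, interval -0.35 to 0.10), but by probe 2 HBL-1 lay below K422 (-0.51 ± 0.11, adjusted p = 0.00256). By probe 1, RBBP4 ran from 3.40 to 3.78 and none of the 6 pairs of lines differed past the threshold. By probe 2 it differed in 5 of them, with OCI-Ly3 below DB by a difference of -2.41 ± 0.18 (adjusted p = 5.64e-07) and HBL-1 and K422 apart by -0.03. The probe 1 difference of OCI-Ly3 and DB, -0.12, was called at -0.34 with quantile normalization (adjusted p = 0.0102). RBBP7, the paralogue of RBBP4, reached 5.97, 5.96 and 5.94 in OCI-Ly3 against 5.41, 5.60 and 5.58 in DB, a difference of 0.42 ± 0.11 (adjusted p = 0.00790) that quantile normalization reduced to 0.03. K422 and HBL-1 overlapped for RBBP7, with a difference of 0.01 (interval -0.23 to 0.25).

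JARID2 was the member whose siCtrl level was higher in the ABC line of both sessions. It stood at -2.00, -2.42 and -2.56 in DB and at -0.26, -0.44 and -0.30 in OCI-Ly3, a 3.98-fold difference (log2 1.99 ± 0.22, adjusted p = 1.66e-05). It stood at -1.82, -1.84 and -1.64 in K422 and at -0.33, -1.19 and -0.99 in HBL-1, a 1.90-fold difference (log2 0.93 ± 0.22, adjusted p = 0.00466). Replicates did not overlap in either session, although HBL-1 replicate 1 lay well above the others of its line. With normexp on the siCtrl channel the difference of HBL-1 and K422 was 0.80 and no longer called (adjusted p = 0.0526). The order was OCI-Ly3, HBL-1, K422 and DB, in which OCI-Ly3 and HBL-1 (difference 0.50, adjusted p = 0.0800) and K422 and DB (difference 0.57, adjusted p = 0.0503) did not differ past the threshold. Those 2 comparisons cross sessions.

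BMI1, the PRC1 subunit, was highest in HBL-1. Its probe 1 read 2.81, 2.74 and 2.75 in HBL-1 and 0.91, 1.02 and 1.09 in K422, with 1.90, 1.18 and 1.06 in DB and 1.16, 1.24 and 1.23 in OCI-Ly3. HBL-1 was above K422 by 1.76 ± 0.19 (3.39-fold, adjusted p = 1.62e-05), and its other probes gave 1.80 and 1.74, so all 3 probes read a step of like size. OCI-Ly3 and DB differed by -0.17 (interval -0.58 to 0.25), and DB replicate 1 lay above the other control replicates of its line.

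The levels of CREBBP depended on the probe. Probe 1 was at 0.13, -0.34 and -0.46 in DB, -0.86, -0.90 and -0.77 in OCI-Ly3, -1.45, -2.32 and -2.08 in K422 and -1.19, -1.25 and -1.35 in HBL-1, without overlap between the lines of a session. By that probe CREBBP was lower in OCI-Ly3 than in DB (-0.62 ± 0.22, adjusted p = 0.0386) and higher in HBL-1 than in K422 (0.69 ± 0.22, adjusted p = 0.0239). Probe 2, printed in 10 spots and averaged, had the opposite sign in both sessions, at 0.16 and -0.32, neither past the threshold, and probe 3 gave -0.84 (adjusted p = 0.0115) and -0.05. Both calls by probe 1 were lost without single replicates, the first at -0.45 without DB replicate 1 (adjusted p = 0.141) and the second at 0.50 without K422 replicate 2 (adjusted p = 0.0975). The first EP300 probe, also printed in 10 spots, ran from -2.52 to -2.04 in DB, -2.27 to -1.89 in OCI-Ly3, -1.88 to -1.70 in K422 and -1.97 to -1.78 in HBL-1, and neither within-session difference passed the test. Without DB replicate 1 that of OCI-Ly3 and DB was 0.37 in place of 0.23 (adjusted p = 0.0494).

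Of the 10 members, 5 were called between OCI-Ly3 and DB, where 41.6% of all genes and 60.2% of those above background were, and 5 between HBL-1 and K422, where 42.9% and 58.1% were. Across sessions the counts were 4 for K422 and DB (49.7% of all genes), 9 for HBL-1 and DB (52.1%), 7 for OCI-Ly3 and K422 (51.1%) and 6 for OCI-Ly3 and HBL-1 (47.5%), and there line and scan cannot be told apart.

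**Figure D1:**
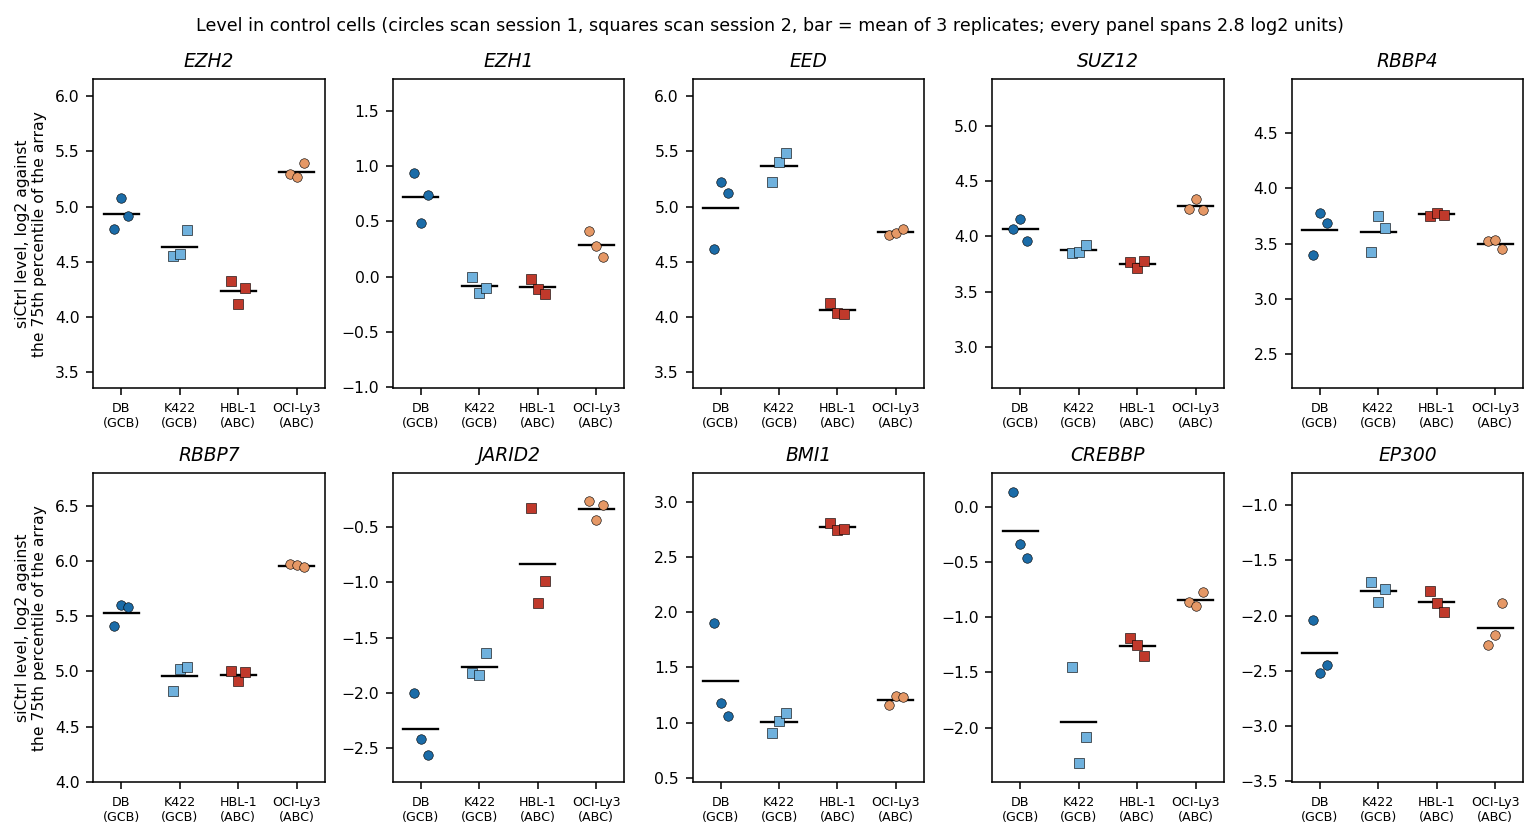
Level of each member in siCtrl cells by line, as log2 Cy5 signal of the brightest probe against the 75th percentile of the array, with 1 point for each replicate (mean of its 2 arrays) and a bar at the mean of 3. JARID2 lies higher in both ABC lines than in the GCB line of the same scan session, BMI1 stands out in HBL-1, at 2.74 to 2.81, and EED is lowest there.

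On FOXP1 silencing, changes of the members were small and were most frequent in HBL-1. There 7 of 10 members were called, 5 lower and 2 higher, where 31.1% of all genes were called and 53.8% of the 13256 genes tested there that, like the members, were well above background in both channels on all arrays. Without HBL-1 replicate 1 the count was 4, and that of all genes went from 9387 to 6640 of 30140. In DB 1 member was called (12.1% of all genes, 22.0% of those above background), in K422 2 (19.4% and 33.6%) and in OCI-Ly3 3 (18.8% and 31.6%). By direction, 15.0% of all genes were lower and 16.2% higher in HBL-1, 5.96% and 6.17% in DB, 9.59% and 9.81% in K422, and 9.12% and 9.65% in OCI-Ly3. Only EP300 in OCI-Ly3 also passed the log2 limit of 0.5 (1.41-fold) that the methods of the study used, which 4.42% of genes did in that line, against 2.16% in DB, 4.44% in K422 and 9.90% in HBL-1, where 0 members did. The members had a median change of -0.06 (DB), 0.03 (K422), -0.18 (HBL-1) and -0.04 (OCI-Ly3), against a median of 0 over all genes in each line.

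EZH2 fell in HBL-1. Its log2 ratios on the 6 HBL-1 arrays had a lowest value of -0.69, a median of -0.37 and a highest of -0.23. In DB they ran from -0.44 to 0.19 (median 0.01), in K422 from -0.12 to 0.17 (median 0.03) and in OCI-Ly3 from -0.12 to 0.17 (median -0.03). All 6 HBL-1 arrays were below 0 and below every array of K422 and OCI-Ly3, with 1 DB array, siFOXP1 #1 of replicate 2, inside their range. The mean change was -0.42 ± 0.19 (SD, n = 6), 1.34-fold lower (adjusted p = 1.48e-05), and it stayed called under every alternative that was run for it. The other lines averaged -0.04, 0.03 and -0.01, and none passed the test.

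EZH1 moved the other way and rose in HBL-1, from 0.18 to 0.65 over the arrays with a median of 0.36 (mean 0.36 ± 0.17, adjusted p = 1.91e-04). It was above 0 on all 6 arrays of DB (0.04 to 0.54) and of OCI-Ly3 (0.04 to 0.38) as well, with means of 0.18 (adjusted p = 0.0717) and 0.14 (adjusted p = 0.132) that did not pass, and it averaged 0.06 in K422. With normexp background correction and median centring the HBL-1 mean was 0.10 (adjusted p = 0.561).

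EED was lower in 3 lines and not in OCI-Ly3. Its log2 ratios ran from -0.57 to -0.03 (median -0.20) in DB, -0.32 to 0.10 (median -0.21) in K422, -0.31 to -0.19 (median -0.26) in HBL-1 and -0.01 to 0.21 (median 0.07) in OCI-Ly3. HBL-1 arrays were the tightest, and those of OCI-Ly3 did not overlap those of DB. EED fell by 0.23 in DB (adjusted p = 0.00231), by 0.15 in K422 (adjusted p = 0.0227) and by 0.26 in HBL-1 (adjusted p = 2.30e-04). Normexp correction with loess gave -0.12, -0.11 and -0.13 in these lines, with adjusted p of 0.157, 0.141 and 0.0651, so none of the 3 calls held under it. Without K422 replicate 3 the K422 value was -0.08 (adjusted p = 0.320), and without K422 replicate 2 it was -0.17 (adjusted p = 0.0678). EED was called with siFOXP1 #1 alone in DB (-0.359, adjusted p = 0.00189) and K422 (-0.246, 0.0159). With siFOXP1 #2 alone it was called in neither, at -0.105 (0.484) and -0.059 (0.758). In HBL-1 either siRNA alone gave a call. The DB and K422 calls were also lost in the deposited matrix (0.17, 0.308) and with the line fitted alone (0.149, 0.157). Normexp with median centring ended all 3 (0.562, 0.155 and 0.0709), and the methods' t-test those in DB and K422 (0.261, 0.212).

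The remaining core subunits changed by less. SUZ12 fell in HBL-1, from -0.45 to 0.00 over the arrays with a median of -0.19 (mean -0.20 ± 0.17, adjusted p = 0.00282), and its means elsewhere were between -0.07 and -0.02. Without HBL-1 replicate 1 its value there was -0.14 (adjusted p = 0.0841). RBBP7 fell in HBL-1, from -0.29 to -0.10 (mean -0.16 ± 0.07, adjusted p = 4.78e-04), and in OCI-Ly3, from -0.23 to -0.01 (mean -0.13 ± 0.09, adjusted p = 0.00477), on 6 of 6 arrays in both, the latter with adjusted p of 0.0523 without OCI-Ly3 replicate 2. The median-centred deposited matrix gave -0.10 for SUZ12 in HBL-1 and -0.05 and -0.04 for RBBP7, none of them past the threshold. In HBL-1 the SUZ12 call was also lost with siFOXP1 #1 alone (-0.08, adjusted p = 0.533) and by the methods' t-test (0.0862), and the RBBP7 call with siFOXP1 #1 alone (0.0901). The RBBP7 call in OCI-Ly3 was lost with siFOXP1 #2 alone (0.173) and with normexp and median centring (0.326). It was lost too with the line fitted alone (0.0716) and by the methods' t-test (0.0703). RBBP4 was called higher in HBL-1 by probe 1 (-0.06 to 0.44, mean 0.21, adjusted p = 0.00955), but the sign turned to -0.05 with normexp and median centring and to -0.12 as the mean over its 4 probes. Without HBL-1 replicate 1 or 3 it had adjusted p of 0.0701 and 0.0986. With the line fitted alone, by the methods' t-test and with siFOXP1 #2 alone these were 0.0949, 0.106 and 0.363.

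JARID2 was below 0 on average in every line. Its log2 ratios had a lowest value, median and highest value of -0.47, -0.33 and -0.16 in K422, -0.71, -0.42 and -0.03 in HBL-1 and -0.73, -0.45 and -0.27 in OCI-Ly3, with all 18 arrays of these lines below 0. It fell by 0.33 in K422 (1.26-fold, adjusted p = 0.0183), by 0.37 in HBL-1 (1.29-fold, adjusted p = 0.00487) and by 0.48 in OCI-Ly3 (1.39-fold, adjusted p = 0.00147). In DB it ran from -0.42 to 0.29 (mean -0.16, adjusted p = 0.321), where the array of siFOXP1 #1 in replicate 3 gave 0.29, that of siFOXP1 #2 in replicate 2 gave 0.00 and the other 4 lay below 0. The call in K422 was lost with the slide as a block (-0.31, adjusted p = 0.0693) and without K422 replicate 2 (adjusted p = 0.0983) or 3 (adjusted p = 0.121), and that in HBL-1 without its replicate 1 (-0.25, adjusted p = 0.125). The K422 call was also lost in the deposited matrix (adjusted p = 0.0669), with normexp and median centring (0.123) and with siFOXP1 #1 (0.108) or #2 (0.169) alone. The HBL-1 call was also lost with the line fitted alone (0.0685), by the methods' t-test (0.0516) and with siFOXP1 #2 alone (0.0720). The OCI-Ly3 call was lost with siFOXP1 #1 alone (0.0548). BMI1 probe 1 was also below 0 on average in every line, at -0.17 (DB), -0.23 (K422), -0.20 (HBL-1) and -0.15 (OCI-Ly3), and was called in none. Its DB arrays ran from -0.55 to 0.53, and the high one was again siFOXP1 #1 of replicate 3, and without both arrays of DB replicate 3 the DB value was -0.37 (adjusted p = 0.0031), with K422 and HBL-1 then called as well (adjusted p = 0.0138 and 0.0174).

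Of the acetyltransferases, CREBBP was called in no line by probe 1, with means of 0.02 and 0.13 in the GCB lines DB and K422, and of -0.14 and 0.07 in the ABC lines HBL-1 and OCI-Ly3. EP300 fell in OCI-Ly3 by probe 1, from -1.21 to -0.14 with a median of -0.41 (mean -0.58 ± 0.44, 1.50-fold, adjusted p = 0.00117). The arrays of replicate 3 lay lowest, at -1.04 and -1.21, whereas the other 4 arrays lay between -0.49 and -0.14. Without replicate 3 the change was -0.31 (adjusted p = 0.0170), and with OCI-Ly3 fitted alone the adjusted p was 0.104. In the other lines EP300 averaged -0.05, 0.05 and -0.08.

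**Figure D2:**
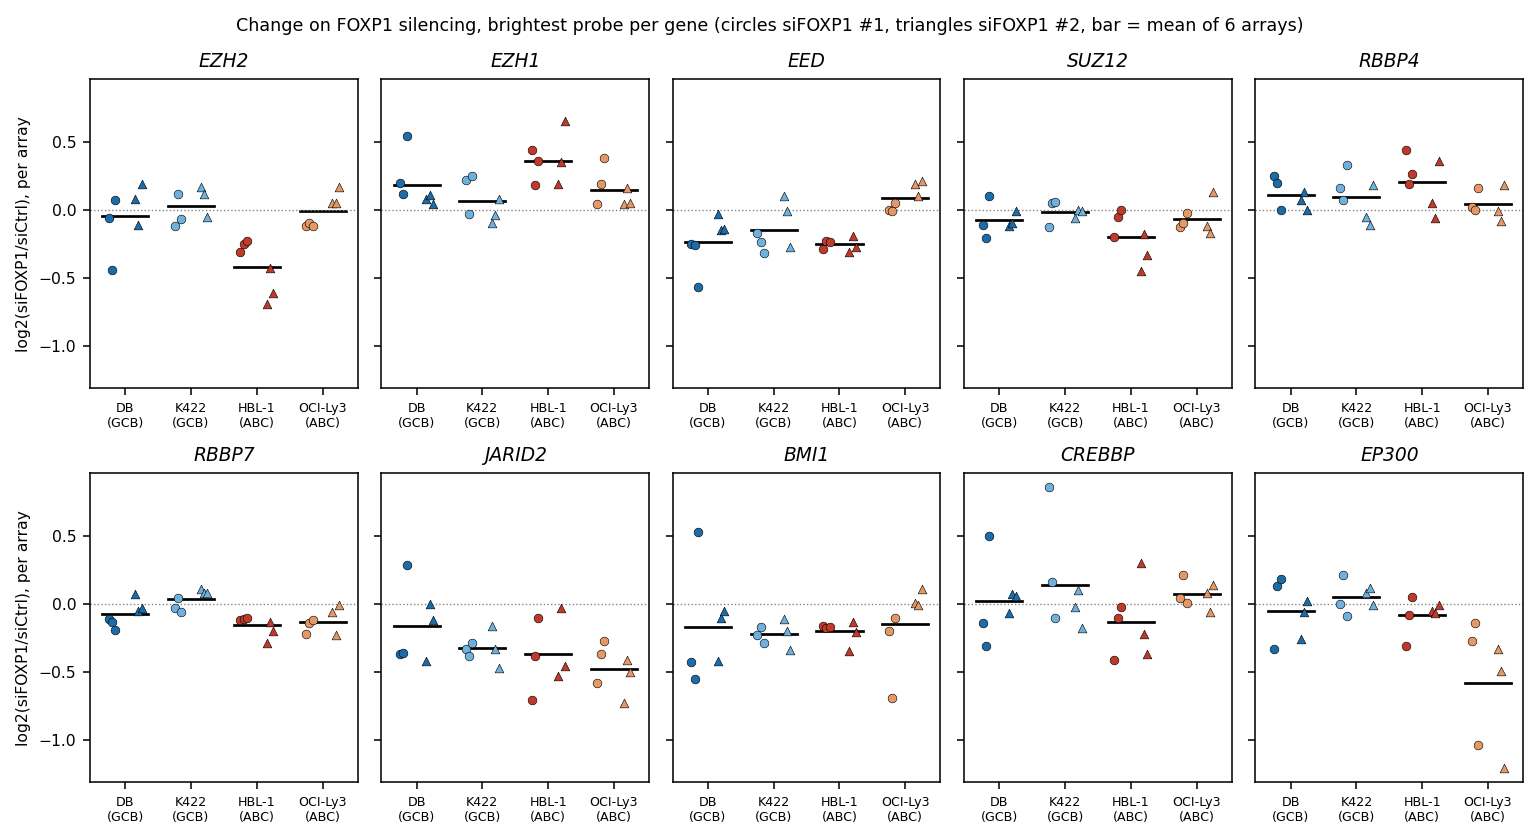
Change of each member on FOXP1 silencing by line, as log2(siFOXP1/siCtrl) of the brightest probe, with 1 point for each of 24 arrays (circles siFOXP1 #1, triangles siFOXP1 #2) and a bar at the mean of 6. EZH2 lies below 0 on all HBL-1 arrays and around 0 in the other lines, JARID2 below 0 on all arrays of 3 lines, and EP300 in OCI-Ly3 spreads from -1.21 to -0.14.

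With every probe fitted and adjusted over all probes, 13 of the 20 probes of the members were called in HBL-1 (31.3% of all probes), 3 in DB (12.4%), 5 in K422 (19.1%) and 7 in OCI-Ly3 (19.5%). All probes include those below background. Genes above background, by their brightest probe, were called more often, at 53.8%, 22.0%, 33.6% and 31.6% in the same order of lines. The 3 probes of BMI1 averaged below 0 in all lines. Probe 2 of BMI1 was called in each line, at -0.47 ± 0.28 in DB (adjusted p = 4.00e-04), -0.31 ± 0.06 in K422 (adjusted p = 0.00624), -0.24 ± 0.09 in HBL-1 (adjusted p = 0.0170) and -0.23 ± 0.16 in OCI-Ly3 (adjusted p = 0.0365), and probe 3, printed above, in K422 (-0.48) and HBL-1 (-0.50). For SUZ12, probe 2 was below 0 on all arrays of HBL-1 (-0.19 ± 0.14, adjusted p = 0.00130) and OCI-Ly3 (-0.12 ± 0.07, adjusted p = 0.0385), while probe 3 was called in no line.

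The probes of RBBP4, CREBBP and EP300 disagreed. In HBL-1, RBBP4 probe 1 was higher (0.21) and probe 4 lower (-0.43 ± 0.29, on 6 of 6 arrays, adjusted p = 0.00474), and probe 4 was lower in OCI-Ly3 as well (-0.39, adjusted p = 0.0178). Probe 3 of RBBP4 was higher in DB (0.25, adjusted p = 0.0231). CREBBP probe 2 was lower in HBL-1 (-0.33, adjusted p = 0.00640) and higher in OCI-Ly3 (0.26, adjusted p = 0.0475), and CREBBP probe 3 was higher in K422 (0.42, adjusted p = 6.06e-05). EP300 probe 2 was higher on 6 of 6 HBL-1 arrays, from 0.16 to 0.69 (mean 0.40 ± 0.19, adjusted p = 0.00296), and averaged 0.01 in OCI-Ly3, where probe 1 averaged -0.58. No direction can be given for CREBBP or EP300 as a gene from these probes.

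**Figure D3:**
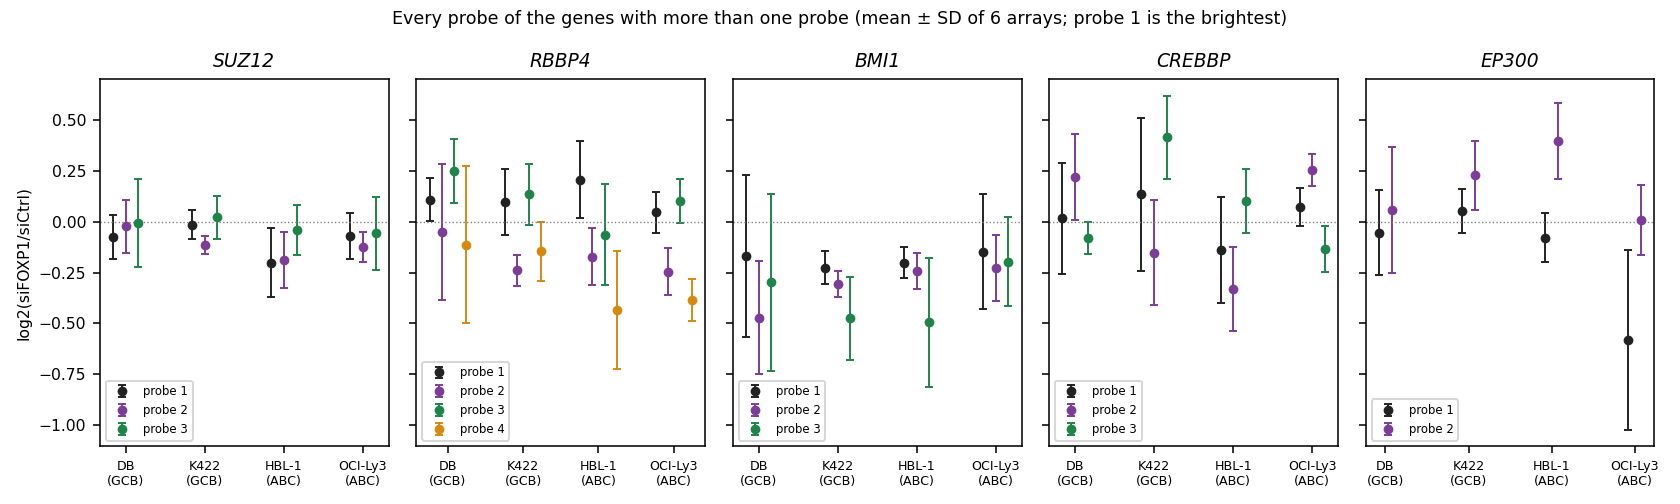
Change on silencing by every probe of the members with more than 1 probe, as mean log2(siFOXP1/siCtrl) with an error bar of 1 SD over 6 arrays, by line. The probes of BMI1 lie below 0 in all lines, whereas those of RBBP4, CREBBP and EP300 lie on both sides of it.

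The difference between subtypes in the response to silencing, in which a dye bias cancels, was called for 2 members (8.30% of all genes). For differences between lines in the response, the share among genes above background is not given. EZH2 responded lower in the ABC lines by -0.21 ± 0.06 (SE, adjusted p = 0.0278), and RBBP7 by -0.12 ± 0.03 (adjusted p = 0.0143). With the replicate number of a line as a block the adjusted p of EZH2 was 0.0504, and leaving out any of 7 of the 12 pairs of arrays of a replicate (DB 1 or 3, K422 2, HBL-1 1 or 3, OCI-Ly3 1 or 2) gave between 0.0535 and 0.0918. With 4 line means as the samples, neither was called (adjusted p = 0.935 for both), and 0 of all 30142 genes were. Within session 1 (OCI-Ly3 minus DB) these differences were 0.03 (interval -0.14 to 0.20) for EZH2 and -0.06 (interval -0.15 to 0.03) for RBBP7, neither past the threshold. Within session 2 (HBL-1 minus K422) EZH2 differed by -0.45 ± 0.08 (adjusted p = 0.00132), RBBP7 by -0.19 ± 0.04 (adjusted p = 0.00684) and EZH1 by 0.30 ± 0.09 (adjusted p = 0.0388, with the replicate block 0.0952, and up to 0.188 without a single replicate), which made 3 members called, where 9.92% of all genes were. In session 1 EED was called alone (2.84% of all genes), with OCI-Ly3 above DB by 0.32 ± 0.06 (adjusted p = 0.00781). With normexp and median centring none of these calls within a session held, with EZH2 at -0.42 (adjusted p = 0.595) between HBL-1 and K422 and EED at 0.36 between OCI-Ly3 and DB. In the deposited matrix RBBP7 was at -0.165 (adjusted p = 0.0765) and EZH1 at 0.328 (adjusted p = 0.0580) between HBL-1 and K422. Since DB and OCI-Ly3 differ from K422 and HBL-1 in scan session, and each session held a single line of a subtype, a difference between the lines of a session is not separated from other differences between those lines. JARID2, below 0 on average in every line but not called in DB, differed by -0.18 between subtypes (interval -0.37 to 0.02), and BMI1 by 0.02 (interval -0.19 to 0.24).

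**Figure D4:**
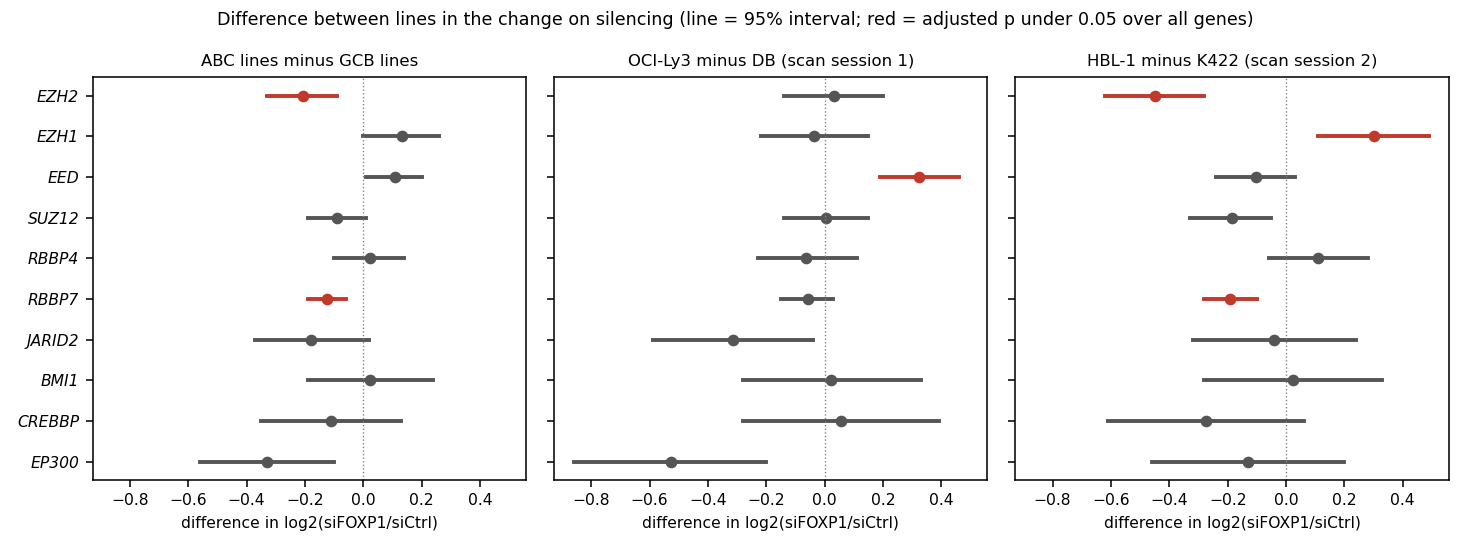
Difference between lines in log2(siFOXP1/siCtrl) for each member, for ABC minus GCB lines and for the pair of lines within each scan session, with the 95% interval as a bar and calls in red. EZH2 differs by -0.45 between HBL-1 and K422 and by 0.03 between OCI-Ly3 and DB.

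FOXP1 was lower with siFOXP1 #2 than with siFOXP1 #1 in each line, and limma called the difference in all 4. The fold below siCtrl with #2 was 6.48 for DB (2.46 with #1), 5.46 for OCI-Ly3 (2.79), 4.57 for HBL-1 (2.45) and 3.40 for K422 (1.88). The members were compared between the siRNAs. No member differed between them in any line by limma after adjustment, where between 0.189% and 0.395% of all genes did, and at an unadjusted p under 0.05 there were 2 such members in DB and 2 in HBL-1, with 0 in the other lines. EZH2 in HBL-1 gave -0.31, -0.25 and -0.23 with siFOXP1 #1 and -0.69, -0.43 and -0.61 with siFOXP1 #2. These arrays did not overlap, and the difference was -0.31 (interval -0.55 to -0.08, unadjusted p = 0.0128, adjusted p = 0.562 by limma). SUZ12 in HBL-1 gave -0.20, -0.05 and 0.00 with #1 and -0.45, -0.18 and -0.33 with #2, a difference of -0.24 (interval -0.44 to -0.04, adjusted p = 0.647). In DB the differences were in EED, 0.25 (interval 0.06 to 0.44, adjusted p = 0.293), and RBBP7, 0.14 (interval 0.02 to 0.27, adjusted p = 0.408) for siFOXP1 #2 minus #1.

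Across the 24 arrays, which share lines, replicates and possibly control RNA, the log2 ratio of EZH2 ran with that of SUZ12 (Pearson r = 0.779, Spearman rho 0.663) and RBBP7 (0.630 and 0.654), and against that of EZH1 (-0.566 and -0.649). Without the 2 arrays farthest from the median of EZH2, r was 0.577, 0.481 and -0.515. On the 18 arrays of the lines other than HBL-1 it was 0.567, 0.445 and -0.309. Within the 6 arrays of a line it varied widely, for SUZ12 from 0.258 in K422 to 0.960 in HBL-1, for RBBP7 from 0.364 in DB to 0.944 in HBL-1, and for EZH1 from -0.942 in K422 to 0.125 in DB. SUZ12, RBBP7 and EZH1 were the members with r farthest from 0 with EZH2. Other core subunits ran together less or not at all. Over the 24 arrays r was 0.436 for EZH2 with EED and -0.41 for EZH2 with RBBP4. For EED it was 0.0925 with SUZ12, 0.276 with RBBP7 and -0.592 with EP300.

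**Figure D5:**
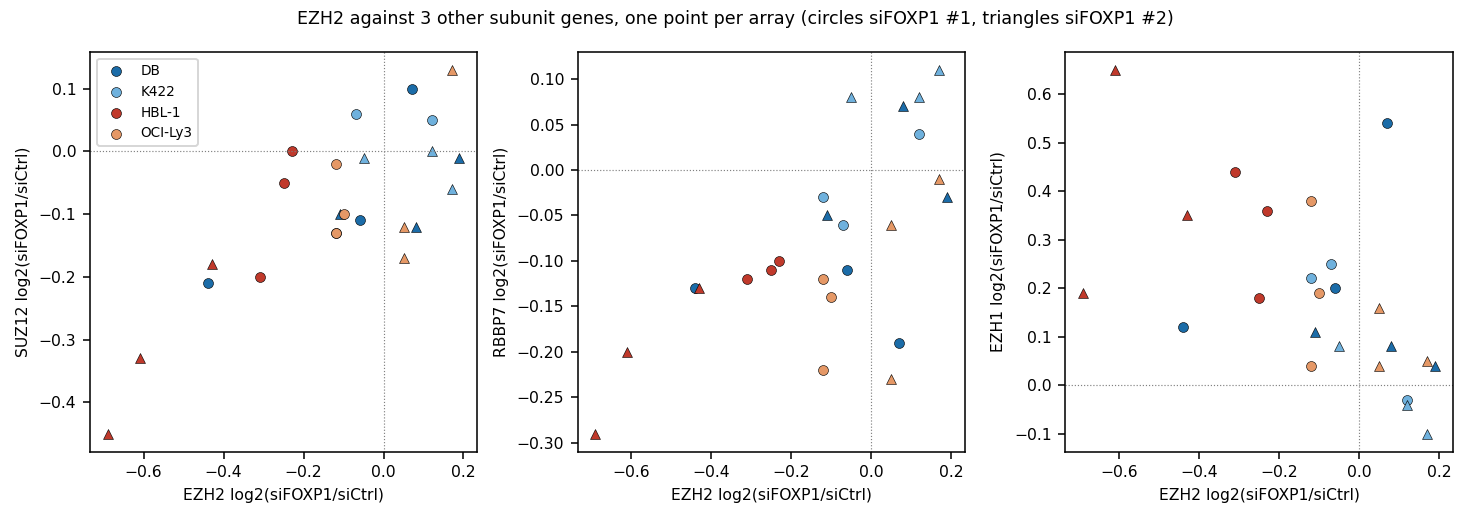
Log2(siFOXP1/siCtrl) of EZH2 on the x axis against SUZ12, RBBP7 and EZH1, with 1 point for each of 24 arrays, coloured by line. The HBL-1 arrays lie at the low end of EZH2, where r is 0.960 with SUZ12 and 0.944 with RBBP7 among them.

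Of 12903 other genes well above background on all arrays, those whose log2 ratios ran most like EZH2 over the 24 arrays were SGOL1 (r = 0.921), which protects centromeric cohesion, NCAPG (0.910), a condensin subunit, and C7orf28B (0.909). For SUZ12 they were RAD54B (0.889), MTBP (0.842) and HSF2 (0.839), and for RBBP7 they were FBXO5 (0.893), SGOL2 (0.871) and PLK4 (0.866), of which FBXO5 restrains the anaphase-promoting complex and PLK4 drives centriole duplication. EED was most like EYA3 (0.838), PPID (0.836) and LONP2 (0.815). EZH1 was most like TSNARE1 (0.860), CECR7 (0.857) and AGER (0.856), and JARID2 like AK056910 (0.810), CDK6 (0.745) and ULK1 (0.733). BMI1 was most like KRT10 (0.832), MAN1A2 (0.804) and LOC400960 (0.804), RBBP4 like C19orf29 (0.798), RP3-402G11.5 (0.763) and C11orf59 (0.740), CREBBP like TM9SF2 (0.783), THC2548755 (0.781) and HIST1H2BI (0.777), and EP300 like ZC3H13 (0.829) and TMEM93 (0.799). These are descriptions of likeness among the highest of many values, given with no test.

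Genes of a proliferation list were also lower in HBL-1. There 9 of its 15 genes were called lower and 0 higher, with a median of -0.28, where 15.0% of all genes were called lower, and PCNA, the DNA polymerase clamp, fell by 0.61 (adjusted p = 0.00225). All 15 were well above background in siCtrl cells, and 53.8% of genes above background were called in HBL-1 in either direction. In OCI-Ly3, where EZH2 averaged -0.01, 5 were lower and 0 higher (9.12% of all genes lower), in DB 2 were lower (5.96%), and in K422 0 were lower and 3 higher (9.81% of all genes higher). The part of these genes in the EZH2 result was not tested. Of the B cell markers in HBL-1, 4 of 6 were higher, CD22 by 0.89, CD79B by 0.59 and CD79A by 0.56, where 16.2% of all genes were called higher, and of the markers of other blood cells 0 were called in that line. Elsewhere MS4A1 rose by 0.64 in OCI-Ly3, where 3 of the 6 B cell markers were higher and 0 lower (9.65% of all genes higher). Of these 6, 1 was lower in DB, and 1 was higher and 1 lower in K422. The GCB markers MYBL1 and MME rose by 1.12 and 0.69 in K422, where 2 of 5 were higher and 0 lower. The ABC marker CCND2 fell by 0.99 in HBL-1, where 1 of 5 ABC markers was lower and 0 higher. CCND2 also fell by 0.60 in OCI-Ly3, where 1 ABC marker was lower and 1 other was higher. CSF1R, a marker of other blood cells, fell by 0.99 in K422, where 1 of 6 such markers was lower and 0 higher. The part of these markers in the members' values was not tested.

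Other genes of the same machinery were counted from lists. Of 6 further PRC2 accessory subunits, 0 were called in DB, 1 in K422 (higher), 3 in HBL-1 (2 higher, 1 lower) and 2 in OCI-Ly3 (1 in each direction). They were EPOP in K422 (0.42), EPOP and PHF1 (0.34) up and AEBP2 (-0.33) down in HBL-1, and PHF1 (0.43) up and AEBP2 (-0.24) down in OCI-Ly3, of which PHF1 and AEBP2 were named after their values were seen. EPOP, listed on the array as C17orf96, was higher in HBL-1 by 0.82 ± 0.27 (adjusted p = 6.26e-07). Of 18 further PRC1 genes, 7 were higher and 3 lower in HBL-1, 4 higher and 3 lower in DB, 3 and 3 in K422 and 3 and 2 in OCI-Ly3. In HBL-1 that is to be read against 16.2% of all genes higher and 15.0% lower, and in DB against 6.17% and 5.96%. For K422 the shares were 9.81% and 9.59%, and for OCI-Ly3 9.65% and 9.12%. Of the alternative catalytic subunits, RNF2 fell by 0.50 in HBL-1 on 6 of 6 arrays (adjusted p = 2.78e-07), and RING1, named after its values were seen, rose in all 4 lines, by 0.45 in HBL-1 on 6 of 6 arrays (adjusted p = 2.64e-06). In addition, the chromodomain genes CBX8 (0.52 in HBL-1), CBX6 (0.58 in DB) and CBX7 (0.52 in K422) rose. The 2 H3K27 demethylases were called in no line.

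Of 12 other acetyltransferase genes, 3 were higher and 1 lower in HBL-1, 1 higher and 3 lower in DB, 2 higher in K422, and 1 higher and 4 lower in OCI-Ly3, where the shares of all genes higher and lower were 16.2% and 15.0%, 6.17% and 5.96%, 9.81% and 9.59%, and 9.65% and 9.12%. KAT6B, listed as MYST4, rose by 0.68 in HBL-1 (adjusted p = 4.98e-06), and KAT2B fell by 0.62 in OCI-Ly3 on 5 of 6 arrays (adjusted p = 1.97e-05). Of 11 histone deacetylases, which remove the marks that CREBBP and EP300 place, 0 were lower in any line. In DB 5 were higher (6.17% of all genes), in OCI-Ly3 6 (9.65%), in HBL-1 4 (16.2%) and in K422 3 (9.81%), among them HDAC7 at 0.75 and HDAC1 at 0.59 in HBL-1 and HDAC11 at 0.72 in OCI-Ly3. Of 5 genes known to be held silent by Polycomb in germinal centre B cells, 1 was higher in HBL-1, where 16.2% of all genes were, a share near that background. It was PRDM1, the plasma cell regulator, at 0.73 ± 0.19 (adjusted p = 0.0119), with a low siCtrl level of -4.33 that was well above background on 5 of 6 arrays. In DB, K422 and OCI-Ly3 1 gene of that list was lower in each and 0 were higher, where 5.96%, 9.59% and 9.12% of all genes were lower. In DB the gene was CDKN1B, a brake on the cell cycle, at -0.56 ± 0.72 (SD over the DB arrays). Its adjusted p of 0.0386 came from the limma fit that pools the spread of all lines. In K422 it was CDKN1A (-0.45) and in OCI-Ly3 CDKN2A (-0.20), both of them inhibitors of the cell cycle and named after their values were seen.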

How the data were processed

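RNA of 4 DLBCL lines was hybridised by the authors to 24 two-colour Agilent arrays, with siFOXP1 RNA in Cy3 and siCtrl RNA in Cy5. The deposited Feature Extraction files (version 10.5.1.1 for DB and OCI-Ly3, 10.7.3.1 for K422 and HBL-1, per the file headers) hold background-subtracted, dye-normalized intensity per channel and the log10 ratio of red over green. The authors also deposited a matrix of 41078 rows on a log2 scale, used as an alternative after centring each array on its median. Its correlation with the scanner ratios was 0.804 to 0.998, its array medians ran from -0.173 to 0.0669, and the normalization behind it is not fully known. No file gives fold changes or p-values of the authors' own comparisons.

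The log10 ratio was turned in sign and converted to log2, spots of a probe were averaged, with control spots and outlier spots omitted. The brightest probe stood for each of 30142 genes. Means for each line and siRNA were fitted over 24 arrays with limma 3.58.1 in R 4.3.3, with Benjamini-Hochberg adjustment over all genes, and the procedure was tested on simulated data. The siCtrl level was the log2 processed Cy5 intensity minus the 75th percentile of its array, averaged over the 2 arrays of a line and replicate. Probes above background made up 57.3% to 64.5% of an array, and precision is limited by how many arrays there are. Per the study's methods the replicates were independent experiments. The arrays of both siRNAs in a replicate may share control RNA.

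The replicate number was tested as a pairing within a line. Same-numbered arrays deviated together with correlations of 0.0468 to 0.284 over all genes and 0.114 to 0.573 over genes above background. The members, lists and tests were chosen with earlier results of these data known. Named genes were all members, FOXP1, up to 4 genes of each list with the greatest change among those called with a log2 change of at least 0.5 and a signal above background on all 6 arrays, and the 3 genes most correlated with each member. One gene that this rule named is not reported here. Alternatives covered background correction, normalization, probe choice, blocks, left-out replicates, each siRNA, each line alone and the methods' t-test.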

Additional observations from a re-analysis of the deposited data

Results flagged for a closer look

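Of 40 groups of 6 arrays, 3 held an array apart from the others of its group, where chance gives about 2. EZH1 in DB was 0.54 with siFOXP1 #1 in replicate 3, against 0.04 to 0.20 on the other arrays of the line. CREBBP in K422 was 0.86 with siFOXP1 #1 in replicate 1, against -0.18 to 0.16. EP300 in HBL-1 was -0.31 with siFOXP1 #1 in replicate 1, against -0.08 to 0.05.

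The response to silencing differed between lines by a test of the difference itself for 4 members. Between ABC and GCB lines it differed by -0.21 for EZH2 and -0.12 for RBBP7, between OCI-Ly3 and DB by 0.32 for EED, and between HBL-1 and K422 by -0.45 for EZH2, 0.30 for EZH1 and -0.19 for RBBP7.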

How the results depend on the processing

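Of 2350 values for single members under an alternative, 2095 kept their sign and side of the threshold, 125 were no longer called, 30 became called, 93 changed sign without being called in either fit, and 7 that were called changed sign. Those 7 were RBBP4 in HBL-1 (-0.047 with normexp and median centring, -0.115 as the mean over probes) and, in the mean of 4 lines, RBBP4 (-0.029 and -0.056 under the same settings), SUZ12 (0.012) and RBBP7 (0.020) in the deposited matrix, and EP300 (0.004) as the mean over probes. In DB, where 1 member was called, the count was 2 with normexp and loess, in the matrix, as the mean over probes and with siFOXP1 #1 alone, and 0 with median centring, with the line fitted alone, by the methods' t-test and with siFOXP1 #2 alone. EED, the member called above, was not among the 2 with loess (SUZ12 lower, RBBP4 higher) or in the matrix (EZH1 and RBBP4 higher). Of all genes in DB, 3655 of 30142 were called above, 3460 with loess, 9151 in the matrix and 3286 as the mean over probes. With siFOXP1 #1 alone 2690 were called, and with #2 alone 1114. With median centring 83 were called, with the line alone 390, and by the t-test 179 of 26483. In K422 (2 called) the member count was 1 with normexp and loess, in the matrix, with the slide as a block and with siFOXP1 #1 alone, and 0 with median centring and with siFOXP1 #2 alone. All genes called in K422 went from 5846 to 5573 with loess, 8015 in the matrix and 4145 with the slide block. They numbered 3980 with siFOXP1 #1 alone, 2111 with #2 alone and 930 with median centring. In OCI-Ly3 (3 called) the member count was 1 by the methods' t-test and with siFOXP1 #1 alone. There 4773 and 3568 of all genes were called, in place of 5657. The subtype count (2 called) was 0 with median centring and with 4 line means, where 281 and 0 of all genes were called in place of 2500. It was 1 with the replicate block, where 1691 genes were called. Within session 1 neither of the 2 was called, and the 1 call there was EED. Where few of all genes were called, a count of 0 members says little about them. The block ended the calls of EZH2 between subtypes (adjusted p = 0.0504) and of EZH1 between HBL-1 and K422 (adjusted p = 0.0952), and no other call of a line or of a difference between lines. Normexp on the siCtrl channel left 1 of 5 level calls between OCI-Ly3 and DB and 2 of 5 between HBL-1 and K422. Leaving out a replicate gave counts of 1 to 2 in DB, 0 to 3 in K422, 4 to 8 in HBL-1, 2 to 3 in OCI-Ly3, 1 to 2 between subtypes, 2 to 5 for the level between OCI-Ly3 and DB, 3 to 5 between HBL-1 and K422, and 0 between siRNAs. Median centring after normexp moved the median of all genes above background by -0.933 to 0.611 on an array, and the matrix by -0.0669 to 0.173. The cause of these changes was not tested.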
